A study of Homo sapiens with 8 samples.

Results

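The OAS family consists of OAS1, OAS2, OAS3 and OASL, which were 4 of the 25369 genes in the deposited count and FPKM tables. All 4 had enough counts to be tested, as did 14570 genes in all. The members were chosen by their family name, with their measured difference between the stiff and the soft matrix in these libraries already in view. That difference is therefore given as a description, with no p-value, and the change between days on each matrix was tested.

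RNA-seq was performed on LX-2, an immortalised human hepatic stellate cell line that was wild type in every group, cultured on polyacrylamide gels coated with fibronectin. The cells were kept on a soft matrix of 2 kPa or on a stiff matrix of 40 kPa, for 2 or for 4 days, and no drug, interferon or virus is named in the labels of any group. Each of the 4 conditions had 2 libraries, 8 in all, from 1 cell line, so that the spread between libraries does not cover differences between donors or lines. Total counts lay between 19955975 and 27263935 per library. The matrix and its stiffness were the only difference named between groups of the same day. Whether the 2-day and 4-day cultures were grown or sequenced together is not given in the sources used here.

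The stellate cell and fibroblast markers COL1A1 and VIM were abundant, at no less than 504 and 1970 CPM (counts scaled to library size) in any library, while DES and LRAT, both defining genes of stellate cells in the liver, had at most 2 and 1 counts in a library. The hepatocyte genes ALB, APOA1 and TTR had at most 8, 3 and 0 counts. Of the leukocyte list, which summed to 89.8-95.3 CPM in soft and 106-109 CPM in stiff cultures at 2 days and to 106-109 and 117-127 CPM at 4 days, CD68 made up the largest share with 83.8-119 CPM, and PTPRC stayed at or under 2.89 CPM. The summed level of the stellate cell list was 2910-3150 CPM in soft and 3500-3670 CPM in stiff cultures at 2 days. At 4 days it was 4910-5430 and 4770-6990 CPM. VIM made up the largest share of this sum with 1970-6360 CPM, followed by COL1A1 with 504-1020 CPM. COL1A2, RELN, ACTA2, PDGFRB and THY1 lay between 2.13 and 90.7 CPM. The part of these markers in the results was not tested. The 2 libraries of the stiff matrix at 4 days were farther apart than any other pair, with a median absolute log2 difference over all tested genes of 0.47, against 0.14, 0.09 and 0.21 in the soft 2-day, stiff 2-day and soft 4-day pairs. The 4-day stiff-against-soft values of the members are given below with and without each library of this pair. Other results that rest on the pair, such as those of the named list genes, are given mainly with both. In bulk RNA, fewer cells that express a gene and less of its RNA per cell cannot be told apart.

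The OAS proteins are sensors of double-stranded RNA whose genes are switched on by interferon. Bound to such RNA, OAS1, OAS2 and OAS3 join ATP into short oligoadenylates, which act as second messengers of the antiviral response. The catalytic members differ in how many copies of the synthetase unit they carry, fewest in OAS1 and most in OAS3, whereas OASL lacks the enzymatic activity, ends in ubiquitin-like domains and is known for enhancing signalling through the RNA sensor RIG-I. In liver, the family is best known as part of the interferon response to hepatitis viruses.

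On the genome build of the files (hg19, GRCh37), 3 of the genes form a cluster on the forward strand of chromosome 12, in the order OAS1 (chr12:113343661-113371024), OAS3 (chr12:113375856-113414265) and OAS2 (chr12:113416200-113449528), with 4831 and 1934 bases between neighbours. OASL lies 8.01 Mb farther along the chromosome on the reverse strand (chr12:121455566-121477049). Annotated exons of OAS1 overlapped those of 1 lncRNA gene on the opposite strand over 222 of 13021 exon bases, so that reads there cannot be assigned without a strand setting. No annotated exon of the other 3 genes overlapped another gene. None of the 50-base stretches of their annotated transcripts occurred in another OAS gene, and between 0.411% (OAS2) and 1.58% (OAS1) occurred in a gene outside the family. Reads of at least that length thus separated the members from each other.

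Promoter sequence was taken from RefSeq (GRCh38.p14), which gave entries for 2 of the 4 members, OAS1 and OAS3. It is shown because interferon-driven genes are read by factors that bind repeats of GAAA, and because these 2 genes, neighbours on the chromosome, are the members whose stiff-against-soft log2 fold changes differed most from each other. The 250 bases before each start were searched on both strands for GAAANNGAAA, the spacing of the interferon-stimulated response element, and for GAAANGAAA, which is 1 base shorter. The last 160 bases before the start follow, 5′ to 3′ on the forward strand, with the matches in capitals.
OAS1, chr12:112906802-112906961: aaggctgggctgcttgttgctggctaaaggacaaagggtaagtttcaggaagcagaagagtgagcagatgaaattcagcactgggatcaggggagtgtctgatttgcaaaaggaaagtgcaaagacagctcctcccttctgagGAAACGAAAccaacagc
OAS3, chr12:112938314-112938473: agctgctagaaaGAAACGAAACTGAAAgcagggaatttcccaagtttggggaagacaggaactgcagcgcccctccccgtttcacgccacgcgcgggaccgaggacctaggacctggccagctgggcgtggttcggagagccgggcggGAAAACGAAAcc
OAS1 held 1 match to GAAANGAAA, from 17 to 9 bases before its start. OAS3 held matches to GAAANNGAAA from 143 to 134 and from 12 to 3 bases before its start, and a match to GAAANGAAA from 148 to 140 bases, which overlaps the first of these. Among 35116 RefSeq promoters, 3.02% held GAAANNGAAA, 2.69% held GAAANGAAA and 5.48% held at least 1 of both within 250 bases. These matches are letters in a window and no measure of binding.

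OAS3 had the largest counts of the family and OAS1 the smallest. Compared per length, by the deposited FPKM, OASL and OAS3 were the leading members on the soft matrix, with OASL at 5.71 ± 0.199 FPKM (SD, n = 2) and OAS3 at 5.20 ± 0.0210 FPKM at 2 days, and at 10.6 ± 0.674 and 5.12 ± 1.23 FPKM at 4 days. OAS2 and OAS1 were lower, at 0.700 ± 0.00847 and 0.644 ± 0.0621 FPKM at 2 days, a gap smaller than the spread of OAS1. At 4 days on the soft matrix OAS1 reached 2.18 ± 0.478 and OAS2 1.74 ± 0.240 FPKM, again closer than the spread of OAS1, and their libraries overlapped.

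On the stiff matrix the order was OAS3, OASL, OAS2 and OAS1 at both days. OAS3 stood at 4.23 ± 0.394 FPKM at 2 days and 3.003 ± 0.913 FPKM at 4 days, and OASL at 1.98 ± 0.583 and 1.04 ± 0.0117 FPKM. OAS2 was at 0.309 ± 0.0337 and 0.328 ± 0.0728 FPKM and OAS1 at 0.169 ± 0.0298 and 0.212 ± 0.0230 FPKM. The libraries of neighbouring members in this order did not overlap at either day. The FPKM divide each gene by 1 fixed length, which was 1989 bases for OAS1, 6169 for OAS2, 6627 for OAS3 and 2085 for OASL, so that a switch between isoforms would move these levels.

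The make-up of the family thus differed with the matrix. OASL held 46.3% and 47.0% of the summed family FPKM in the soft libraries at 2 days and 57.0% and 50.8% at 4 days, but 26.2% and 32.4% in the stiff libraries at 2 days and 19.9% and 26.6% at 4 days. OAS3 held 65.9% and 61.1% on the stiff matrix at 2 days and 69.2% and 60.5% at 4 days, against 43% and 41.8%, and 21.9% and 30.2%, on the soft matrix. In every soft library there was more OASL than OAS3 per length, with ratios of 1.08 and 1.12 at 2 days and 2.60 and 1.68 at 4 days. In every stiff library there was less, with ratios of 0.397 and 0.530 at 2 days and 0.288 and 0.439 at 4 days. These ratios are taken within a library and do not depend on how libraries were scaled.

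**Figure D1:**
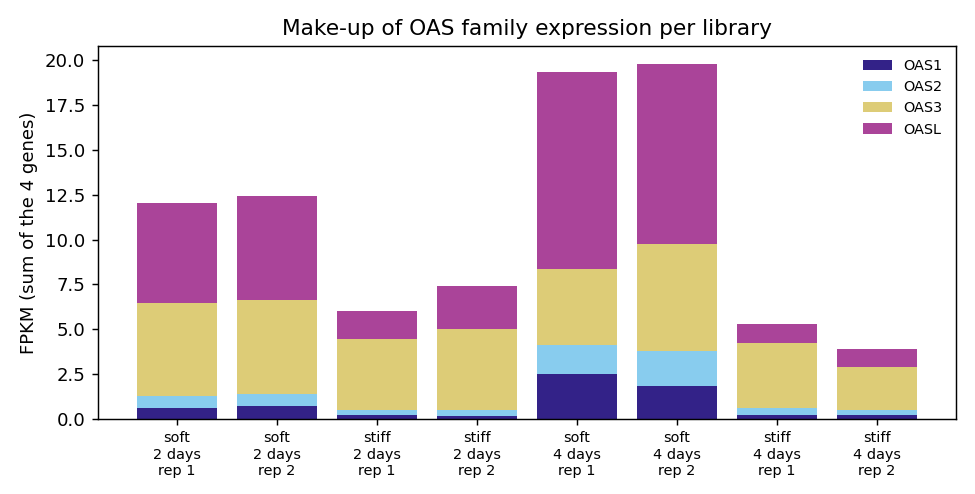
Stacked bars of the FPKM of OAS1, OAS2, OAS3 and OASL in each of the 8 libraries, with the vertical axis in FPKM from 0. The summed height was 12.1-12.5 in the soft libraries at 2 days and 19.4-19.8 at 4 days, and 5.995-7.38 and 3.90-5.28 in the stiff libraries, where OAS3 made up most of the bar.

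Expression of the members on the stiff and the soft matrix is described first for OAS1, a catalytic member. On the soft matrix OAS1 had 34 and 38 counts at 2 days and 108 and 83 counts at 4 days. On the stiff matrix it had 9 and 7 counts at 2 days and 8 and 8 counts at 4 days. All stiff libraries were below all soft libraries. After scaling by the TMM method, the mean level at 2 days was 1.28 ± 0.120 CPM (SD, n = 2) in soft against 0.336 ± 0.0599 CPM in stiff cultures, a log2 fold change of -1.92 (SE 0.354), or 3.78-fold lower. At 4 days these levels were 4.39 ± 0.917 and 0.427 ± 0.0480 CPM, and the log2 fold change was -3.35 (SE 0.334), or 10.2-fold lower. At 8 counts the exact 95% Poisson interval runs from 3.45 to 15.8 counts, for counting error only, so that the level on the stiff matrix is known within wide bounds.

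OASL, the member without synthetase activity, differed by a similar factor at a higher level. It had 331 and 339 counts on the soft matrix at 2 days and 496 and 476 at 4 days, and on the stiff matrix 78 and 119 counts at 2 days and 45 and 38 at 4 days. The soft and stiff libraries were far apart at both days. OASL levels were 11.9 ± 0.385 against 4.13 ± 1.21 CPM at 2 days, a log2 fold change of -1.53 (SE 0.210), and 22.3 ± 1.19 against 2.20 ± 0.0151 CPM at 4 days, a log2 fold change of -3.34 (SE 0.231) or 10.1-fold lower. The stiff 2-day libraries of OASL differed by 0.59 on the log2 scale, more than 94.8% of the tested genes did in that pair.

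OAS2, the catalytic member of intermediate size, had 122 and 121 counts on the soft matrix at 2 days and 209 and 267 at 4 days. On the stiff matrix it had 42 and 49 counts at 2 days and 48 and 30 at 4 days, below every soft library. Its levels were 4.32 ± 0.0414 against 1.91 ± 0.204 CPM at 2 days, with a log2 fold change of -1.18 (SE 0.230), and 10.9 ± 1.62 against 2.04 ± 0.445 CPM at 4 days, with a log2 fold change of -2.40 (SE 0.231). In linear terms OAS2 was 2.26-fold and 5.30-fold lower on the stiff matrix.

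OAS3, the largest enzyme, was the member whose levels were closest between matrices. It had 978 and 959 counts on the soft matrix at 2 days, 625 and 713 on the stiff matrix at 2 days, 607 and 899 on the soft matrix at 4 days, and 496 and 275 on the stiff matrix at 4 days. Stiff libraries were below soft libraries of the same day, but the soft 4-day library with 607 counts (28.3 CPM) lay below a stiff 2-day library with 713 counts (29.9 CPM). Mean OAS3 levels were 34.5 ± 0.0528 against 28.1 ± 2.56 CPM at 2 days, a log2 fold change of -0.30 (SE 0.238), and 34.4 ± 8.64 against 20.1 ± 6.02 CPM at 4 days, a log2 fold change of -0.77 (SE 0.242). OAS3 was thus 1.23-fold and 1.71-fold lower on the stiff matrix.

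**Figure D2:**
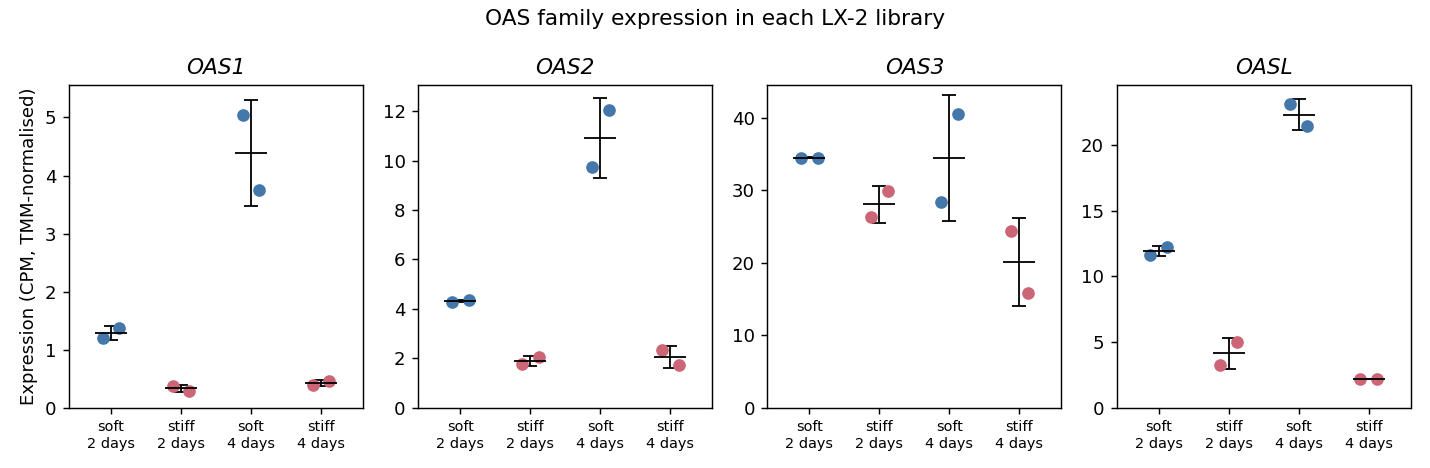
TMM-normalised expression in CPM (vertical axis, from 0, scaled separately for each gene) of OAS1, OAS2, OAS3 and OASL in soft (blue) and stiff (red) cultures at 2 and 4 days. Points are libraries and black bars are the mean ± SD of 2 libraries, and for OAS1, OAS2 and OASL every stiff library lies below every soft library, whereas for OAS3 the soft 4-day libraries spread from 28.3 to 40.5 CPM.

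All 4 members had non-overlapping libraries at both days, lower on the stiff matrix, where 22.4% of the tested genes did so at 2 days and 14.0% at 4 days. Ordered by log2 fold change from the lowest of 14570 genes, at 2 days OAS1 was number 22, OASL 49, OAS2 106 and OAS3 1526, and at 4 days OAS1 was number 21, OASL 22, OAS2 55 and OAS3 584. At an adjusted p under 0.05 in edgeR's quasi-likelihood test, the background was 0% of the tested genes at 2 days in either direction (0 genes, with 411 at an unadjusted p under 0.05, and with DESeq2 6 higher and 22 lower), and 0.0343% higher and 0.213% lower at 4 days. OAS1, OAS2 and OASL were among the 31 genes called lower at 4 days, and 0 members were called at 2 days. Since the members were chosen with this comparison in view, nothing is read from these counts.

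The counts of members called depended on which libraries were fitted together. They are given without the share of all tested genes called in the same fit, so nothing is read from them about the members. At 4 days, 0 members were called when the libraries of that day were fitted alone, and also 0 without either soft library of 2 days or either soft library of 4 days. At 2 days, 3 members were called when the libraries of that day were fitted alone, and 3 without either of the stiff 4-day libraries. The log2 fold changes moved less than the calls did. Without replicate 1 of the stiff 4-day libraries, the 4-day values were -3.23 for OAS1, -2.64 for OAS2, -1.11 for OAS3 and -3.34 for OASL, and without replicate 2 they were -3.46, -2.20, -0.49 and -3.32. OAS3 was thus the member whose 4-day difference rested most on a single library, with 496 and 275 counts in the pair.

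Whether the members changed between days was tested on each matrix, in libraries shared with the comparison above. The choice of members with that comparison in view can therefore favour a rise on the soft and a fall on the stiff matrix. The adjusted p-values below do not allow for that choice. On the soft matrix, OAS1 rose 3.41-fold from 2 to 4 days (log2 fold change 1.77, SE 0.275, adjusted p 0.00486 by edgeR with Benjamini-Hochberg adjustment over all tested genes). OAS2 rose 2.52-fold (1.33, SE 0.210, adjusted p 0.00500) and OASL 1.87-fold (0.90, SE 0.197, adjusted p 0.0147). The libraries of both days did not overlap for these 3 genes. OAS3 had a log2 fold change of -0.0014 (SE 0.238, 95% interval -0.55 to 0.55, adjusted p 0.997), which leaves room for a change of up to about that size in either direction. Of the tested genes, 14.1% were called higher and 13.3% lower between days on the soft matrix, and the members were 3 higher and 0 lower of 4.

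The rises of OAS1 and OAS2 lost the threshold without replicate 1 of the soft 2-day libraries, at adjusted p of 0.0729 and 0.0715 with log2 fold changes of 1.68 and 1.32, and held without each of the other libraries. The rise of OASL lost it without any of the 4 soft libraries, at adjusted p of 0.131 and 0.0858 without replicate 1 or 2 of 2 days and 0.0986 and 0.0657 without replicate 1 or 2 of 4 days, with log2 fold changes between 0.82 and 0.96.

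On the stiff matrix 1 member passed the test between days. OASL fell 1.88-fold from 2 to 4 days (log2 fold change -0.91, SE 0.236, adjusted p 0.0264), with both 4-day libraries below both 2-day libraries. OAS1 stood at 0.34 (SE 0.433, 95% interval -0.67 to 1.34, adjusted p 0.633), OAS2 at 0.11 (SE 0.250, 95% interval -0.47 to 0.68, adjusted p 0.777) and OAS3 at -0.48 (SE 0.242, 95% interval -1.04 to 0.08, adjusted p 0.174). These 3 did not pass the test, and at 7 to 9 counts per library a change of OAS1 within its interval was not detectable. Here 14.0% of the tested genes were called higher and 13.7% lower, and of the members 0 were higher and 1 was lower.

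The fall of OASL lost the threshold in a fit of the 4 stiff libraries alone (adjusted p 0.143), without replicate 1 or 2 of the soft 2-day libraries (0.0572 and 0.0574) and without replicate 2 of the stiff 2-day libraries, where it was -0.58 (adjusted p 0.190). OAS3 passed the test, at -0.83 with an adjusted p of 0.000998, without replicate 1 of the stiff 4-day libraries, and its value was -0.21 without replicate 2. OAS2 was -0.14 without replicate 1 of that pair and 0.30 without replicate 2.

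The log2 difference between matrices was larger in size at 4 than at 2 days in all 4 members. The change of the stiff-against-soft log2 fold change from 2 to 4 days was -1.44 (SE 0.519) for OAS1, -1.23 (SE 0.326) for OAS2, -0.48 (SE 0.339) for OAS3 and -1.81 (SE 0.307) for OASL. With 0% of the 14570 genes past the adjusted threshold for this change (0 genes by edgeR, 284 at an unadjusted p under 0.05), no gene of the table was called. For OAS1 and OAS2 the soft libraries carried most of the change between days, and for OASL both matrices did.

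**Figure D3:**
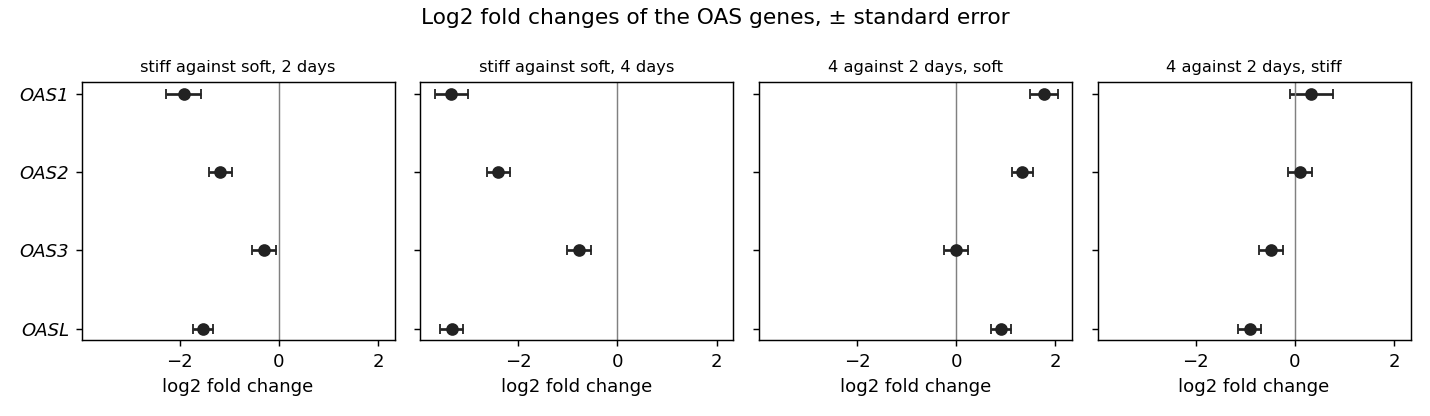
Log2 fold changes (horizontal axis) of the 4 OAS genes in the stiff-against-soft comparison at 2 and 4 days and in the 4-against-2-day comparison on each matrix, with bars for ± 1 standard error of edgeR's fit. The stiff-against-soft values run from -1.92 to -0.30 at 2 days and from -3.35 to -0.77 at 4 days, with OAS3 nearest to 0 at both.

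The profile of each member over the 8 libraries was compared with those of 13076 genes by the root mean square difference of log2 CPM around each gene's own mean, where 0 means the same profile. For OAS1 the closest genes were CCL5 (0.395), OAS2 (0.450), CXCL6 (0.457), CXCL8 (0.485) and CCL2 (0.509), so that the other 4 besides OAS2 encode chemokines. CCL5 had 8.25 ± 0.907 CPM in soft and 2.01 ± 1 CPM in stiff cultures at 2 days, and 27.8 ± 4.05 and 2.20 ± 0.0603 CPM at 4 days. For OAS2 they were IFIT2 (0.209), an interferon-induced RNA-binding protein, the cathepsin gene CTSS (0.226), BIRC3 (0.281), CXCL8 (0.283) and APOL3 (0.292). OASL was closest to MMP9 (0.231), a matrix-degrading gelatinase, followed by APOL3 (0.369), IFI44 (0.386), CSF3 (0.401) and IFIT2 (0.439). MMP9 had 13.3 ± 0.179 and 3.35 ± 1.60 CPM on the soft and stiff matrix at 2 days and 19.2 ± 2.41 and 2.19 ± 0.321 CPM at 4 days.

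OAS3 had other neighbours. Its closest genes were EPAS1 (0.0694), ABCA1 (0.0785), PDGFRB (0.103), JAG1 (0.110) and TAP1 (0.122), of which PDGFRB encodes the growth factor receptor that marks stellate cells and TAP1 a subunit of the antigen peptide transporter. EPAS1 had 103 ± 3.30 and 90.0 ± 8 CPM on the soft and stiff matrix at 2 days and 104 ± 19.3 and 66.3 ± 20.2 CPM at 4 days. In the order of likeness to OAS1, OAS2 came in place 2, OASL in place 7 and OAS3 in place 679. In the order of likeness to OAS3, the other members came in places 12164 (OAS2), 12752 (OASL) and 12908 (OAS1) of 13076. The measure compares sizes as well as shapes over libraries that share their conditions, and it is a description. It also takes in differences between the 2 libraries of a condition. In the pair farthest apart, stiff at 4 days, OAS3 was at 20.1 ± 6.02 CPM, EPAS1 at 66.3 ± 20.2 and JAG1 at 12.8 ± 4.22. How much of the likeness came from this spread was not tested.

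Genes that act on the oligoadenylate pathway downstream of the OAS enzymes were listed as ABCE1, PDE12 and AKAP7. All 3 were tested and 0 were called between matrices at either day. Of all tested genes 0% were called at 2 days, and 0.0343% higher and 0.213% lower at 4 days. The 3 genes had a median log2 fold change of 0.21 at 2 days and -0.02 at 4 days, beside 0.01 and 0.02 over all tested genes. Between days on the soft matrix all 3 rose, where 14.1% of all tested genes did, namely ABCE1, a ribosome recycling factor that also inhibits the pathway (0.78, SE 0.153, adjusted p 0.0103), and PDE12 and AKAP7, which degrade oligoadenylates (0.64 and 0.81, adjusted p 0.0386 and 0.0141). Of the 3, 2 rose on the stiff matrix, where 14.0% of all tested genes did, ABCE1 (0.64, adjusted p 0.0196) and AKAP7 (0.69, adjusted p 0.0268), and PDE12 stood at 0.34 (adjusted p 0.209).

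Of 7 listed interferon ligands, 6 had no or very few counts. IFNB1, IFNL1, IFNL2, IFNL3 and IFNG had 0 counts in all 8 libraries, and IFNK had 2 counts in all. Taken for a single library, 0 counts allow an expected count of up to 3, for counting error only. IFNE was the only 1 of the 7 with enough counts for the test, at 1.21 ± 0.371 and 1.59 ± 0.0566 CPM on the soft and stiff matrix at 2 days and 1.38 ± 0.617 and 1.59 ± 0.516 CPM at 4 days, and it passed no test. The plasmacytoid dendritic cell genes CLEC4C and LILRA4 had 0 counts and at most 1 count in a library.

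Of the 10 genes listed for sensing of double-stranded RNA and of DNA, 9 were tested and 0 were called between matrices. Of all tested genes 0% were called at 2 days, and 0.0343% higher and 0.213% lower at 4 days, so that 0 of 9 says little. The median log2 fold change of the 9 genes was -0.37 at 2 days and -0.60 at 4 days, with values from -2.38 to -0.02 at 4 days. Of the 4 with the highest levels, ADAR, an RNA-editing enzyme, was at -0.10 at 4 days, MAVS, the adaptor of the RNA helicase sensors, at -0.02, TMEM173, the DNA-sensing adaptor STING, at -0.60 (SE 0.180, adjusted p 0.427) and EIF2AK2, the kinase PKR, at -0.06. The lowest value was that of IFIH1, a helicase that senses long double-stranded RNA, at -2.38 (SE 0.435, adjusted p 0.110), which was picked out after its value was seen. Between days, 1 of the 9 was called higher on the soft matrix, DDX58, which encodes RIG-I (1.21, adjusted p 0.00638). On the stiff matrix 1 was called lower, DHX58 (-0.61, adjusted p 0.0476). Of all tested genes 14.1% were called higher on the soft and 13.7% lower on the stiff matrix, so that both counts are close to these shares. Between matrices at 4 days, DDX58 was at -1.45 (SE 0.211) and DHX58 at -1.05 (SE 0.189). DDX58 and DHX58 were also named after their values were seen.

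All 18 listed genes of interferon receptors and signalling were tested. Between matrices at 2 days 0 of the 18 were called, as were 0% of all tested genes, and the median of the 18 was -0.19. At 4 days 1 was called lower, IRF1, a transcription factor induced by interferon, where 0.213% of all tested genes were. On the stiff matrix IRF1 had 17.8 ± 0.803 against 38.5 ± 1.42 CPM on the soft (log2 fold change -1.11, SE 0.149, adjusted p 0.0362). The list's median was -0.28. The lists were drawn up with earlier results of these data known, so that their calls between matrices are a description. The most abundant members had 4-day values of -0.21 (JAK1), -0.04 (TYK2), -0.05 (IFNAR1) and 0.22 (IRF3), none of which passed the test. On the soft matrix 3 genes of 18 rose between days and 2 fell, close to the 14.1% and 13.3% of all tested genes, with IFNAR1 at 0.57 (adjusted p 0.0184) and TYK2 at -1.04 (adjusted p 0.00235), and on the stiff matrix 1 rose and 3 fell, where 14.0% and 13.7% of all tested genes did, with TYK2 at -1.02 (adjusted p 0.00247).

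The list closest to the OAS genes was that of 40 other interferon-stimulated genes, of which 38 were tested. It too was drawn up with earlier results of these data known, so that its calls between matrices are a description. At 2 days 0 were called, as were 0% of all tested genes. At that day 31 of the 38 had non-overlapping libraries with lower values on the stiff matrix, where 22.4% of all tested genes did. The median log2 fold change was -0.53, beside 0.01 over all tested genes. At 4 days 7 were called lower and 0 higher, where 0.213% and 0.0343% of all tested genes were. All 38 values were below 0, and the median was -0.87, beside 0.02 over all tested genes. Those called were the RNA-binding antiviral genes IFIT1 (-1.23, SE 0.149, adjusted p 0.0295), IFIT2 (-2.38, SE 0.236, adjusted p 0.0151) and IFIT3 (-1.60, SE 0.138, adjusted p 0.0106), the helicase gene DDX60 (-2.16, SE 0.244, adjusted p 0.0199), and IFI44 (-2.49, SE 0.207, adjusted p 0.0106), EPSTI1 (-1.82, SE 0.237, adjusted p 0.0362) and IFI44L, which had 2.18 ± 0.239 CPM in soft and 0.0576 ± 0.0814 CPM in stiff cultures (adjusted p 0.0362). IFIT3, for example, had 68.8 ± 5.79 CPM in soft and 22.8 ± 1.56 CPM in stiff cultures at 4 days, and 35.0 ± 0.414 and 20.9 ± 1.21 CPM at 2 days. The most abundant genes of the list were closer to 0 at 4 days, with LGALS3BP at -0.31, IFITM3 at -0.06, TRIM25 at -0.33 and SAMD9 at -0.75, and none of these passed the test. The 4-day values of OAS1, OASL and OAS2, at -3.35, -3.34 and -2.40, lie at the low end of this list, and that of OAS3, at -0.77, lies near its median.

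Between days on the soft matrix 17 of the 38 genes were called higher and 0 lower, with a median of 0.65, beside 14.1% and 13.3% of all tested genes. On the stiff matrix 5 of 38 were called higher and 0 lower, with a median of 0.08, and this count higher is close to the 14.0% of all tested genes. IFIT1 rose on both, by 1.47 (adjusted p 0.00157) on the soft and 0.87 (adjusted p 0.00686) on the stiff matrix, while IFIT2, IFIT3, IFI44, DDX60, EPSTI1 and IFI44L passed the test on the soft and not on the stiff matrix. EPSTI1 was at 0.83 on the stiff matrix (adjusted p 0.0501), with non-overlapping libraries and close to the value of IFIT1. Whether the change between days differed between matrices is the test given above, in which 0 genes passed. Over all lists of the pathway together, 69 of 78 genes were tested. Between matrices at 4 days 0.213% of all tested genes were called lower and 0.0343% higher, and of the list genes 0 were called higher and 8 lower. This count was 0 without any of the 4 soft libraries and in the fit of the 4-day libraries alone, 4 without either stiff 2-day library, and 41 and 32 without replicate 1 or 2 of the stiff 4-day libraries.

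**Figure D4:**
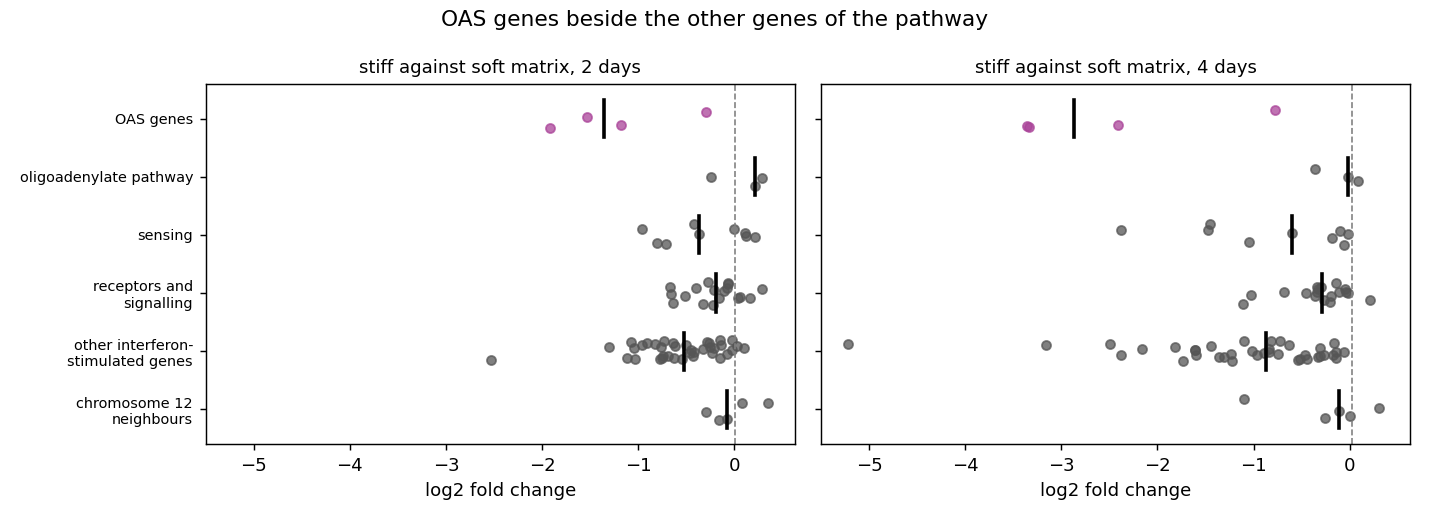
Stiff-against-soft log2 fold changes (horizontal axis) at 2 days (left) and 4 days (right) of the OAS genes (purple) and of the tested genes of 5 lists (grey), 1 point per gene, with a black bar at each median and a dashed line at the median of all 14570 genes. At 4 days the medians were -0.02 for the oligoadenylate pathway, -0.60 for sensing, -0.28 for receptors and signalling, -0.87 for other interferon-stimulated genes and -0.11 for the neighbours on chromosome 12.

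Genes near the OAS loci on chromosome 12 were listed to show whether whole stretches of the chromosome differed. Of 8 listed neighbours 5 were tested and 0 were called in any of the 4 comparisons. The share of all tested genes called in either direction was 0% between matrices at 2 days and 0.247% at 4 days. Between days it was 27.4% in soft and 27.6% in stiff cultures. With shares this low between matrices, 0 of 5 cannot show whether a stretch of the chromosome differed. Between days, 0 of 5 genes says little. The values are therefore given as a description. PTPN11 and RPL6, in the region of the cluster, had 4-day stiff-against-soft values of 0.0031 and 0.30. In the region of OASL, P2RX4 was at -0.25 and CAMKK2 at -0.11, and P2RX7 at -1.10 with a spread of 3.22 ± 1.45 CPM in soft and 1.46 ± 1.41 CPM in stiff cultures. RPH3A, DTX1 and RASAL1, with at most 6 counts in a library, could not be tested.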

How the data were processed

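Total RNA of 8 LX-2 cultures was sequenced as paired-end reads, with groups and replicate numbers taken from the labels. Per the labels, the authors' processing notes name Trim Galore, STAR 2.7.1a, HTSeq, bedtools 2.24.0, DESeq2 and hg19; the annotation and strand setting are not given in the sources used here. The authors deposited unnormalized counts per gene, and FPKM of the same genes. In 12138 genes with at least 20 counts in every library, the ratio of count to deposited FPKM was taken relative to the first library. These ratios had a relative spread between genes of at most 1.78e-14. Their relative gap to median-of-ratios size factors was at most 1.11e-16, so the FPKM are scaled by these factors and not by totals.

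The counts were tested in R 4.3.3 with edgeR 4.0.16 (filterByExpr by condition, TMM factors of 0.8704-1.0801, quasi-likelihood fit of 4 conditions to all 8 libraries). The call threshold was 0.05 on p adjusted by Benjamini-Hochberg. The standard error of a log2 fold change was its size over the root of the F statistic, and the prior count of log2 CPM was 2. The scripts were tested on simulated data. With 2 libraries per condition the 8 libraries shared 1 estimate of the spread. The labels call the libraries replicates, and the study describes them as independent experiments, so that p-values measure the spread between these in 1 cell line.

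The members and lists were chosen with earlier results of these data known. Named genes were the 4 members, all genes of the oligoadenylate pathway, ligand and neighbour lists, those of the other lists that passed in a stiffness comparison and the 4 with the highest mean CPM of each, and the 5 genes closest in profile to each member among genes whose average log2 CPM was 0 or more. Exceptions are marked. A few genes were taken out of the lists and are not reported here. Coordinates are from GENCODE v44lift37 on GRCh37 and promoters from RefSeq.

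Alternatives were DESeq2 1.42.0, RLE factors, no factors, every gene with at least 1 count in total, at least 10 counts in every library, separate fits of the 4 libraries compared, the replicate number as a block, limma 3.58.1 on FPKM logged with a pseudocount of 1 or 0.1 after a filter (FPKM of 1 or more in 2 libraries), the former also without this filter, and leaving out each library. A crossed pairing at 4 days was added after the data were seen.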

Additional observations from a re-analysis of the deposited data

How the results depend on the processing

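In every alternative the 4 members kept a negative stiff-against-soft value at both days. The pseudocount moved the low genes most. With limma on log2(FPKM + 1), with or without the filter, OAS1, OAS2 and OASL were at -0.49, -0.38 and -1.19 at 2 days and at -1.38, -1.04 and -2.50 at 4 days. With log2(FPKM + 0.1), OAS1 and OAS2 were at -1.47 and -0.97 at 2 days and at -2.85 and -2.11 at 4 days. OAS1 could not be fitted with at least 10 counts in every library. Between days on the stiff matrix, OAS2 turned to -0.016 without scaling factors, against 0.11 with them, and OASL was -0.53 (adjusted p 0.0740) with limma on log2(FPKM + 1) without the filter and -0.91 (0.143) in the separate fit, so that 0 members were called lower in either.

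At 2 days DESeq2 called 1 member and 3 list genes lower on the stiff matrix, and the separate fit 3 and 29. At 4 days DESeq2 called 23 list genes lower, limma on log2(FPKM + 0.1) 5 and on log2(FPKM + 1) without the filter 4, against 8, and the separate fit 0 members and 0 list genes. In separate fits between days, 4 list genes were lower on the soft matrix, and 0 were higher and 0 lower on the stiff matrix.

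Leaving out 1 library at a time, the stiff-against-soft value of OASL at 2 days ran from -1.86 to -1.26, and at 4 days OAS1 ran from -3.55 to -3.11, OAS2 from -2.64 to -2.20 and OAS3 from -1.11 to -0.49. Between days on the soft matrix OAS1 ran from 1.51 to 1.97, OAS2 from 1.17 to 1.45, OAS3 from -0.28 to 0.21 (0.206 without replicate 1 of the soft 4-day libraries) and OASL from 0.82 to 0.96. On the stiff matrix OAS2 ran from -0.14 (without replicate 1 of the stiff 4-day libraries) to 0.30, OAS3 from -0.83 to -0.21 and OASL from -1.18 to -0.58. Members called lower between matrices ran from 0 to 3 at 2 days and from 0 to 4 at 4 days, those higher between days on the soft matrix from 0 to 3 and those lower on the stiff matrix from 0 to 2. List genes called lower between matrices ran from 0 to 11 at 2 days and from 0 to 41 at 4 days, and higher at 4 days from 0 to 1. Between days they ran from 3 to 37 higher and 1 to 4 lower on the soft matrix and from 0 to 17 higher and 1 to 17 lower on the stiff matrix. The counts of members and list genes called in alternative fits, here and above, mostly lack the share of all tested genes called in the same fit. Nothing is read from them about the members or lists. The separate fits and those with an omitted library had fewer libraries, and their counts moved in both directions. The cause of these moves was not tested.

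Libraries with the same replicate number did not deviate alike. Their deviations correlated at -0.036 between matrices at 2 days, -0.49 at 4 days, 0.077 between days on the soft and 0.025 on the stiff matrix. Between matrices at 4 days, same-numbered libraries thus tended to deviate in opposite directions, and the reason was not tested. With the replicate number as a block, OASL between days on the stiff matrix was -0.90 (adjusted p 0.0505), so that 0 members were called lower there, with 2 list genes lower, and 3 list genes were lower between matrices at 4 days. No other call of a member changed under the block. The crossed pairing at 4 days called 15 genes higher and 47 lower between matrices at 4 days, against 5 and 31.

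With 2 libraries per condition and 7 to 9 counts of OAS1 per stiff library, depth limits OAS1 most. Dixon's test for a divergent library needs at least 4 per group and could not be run.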
